A study of Mus musculus with 16 samples.

Results

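The genes described here are 47 genes of cell division, taken by symbol from a table of 27288 mouse genes measured in liver. By role, 20 are replication genes, which control entry into S phase or copy DNA, and 27 are mitosis genes, which act from late S phase to the separation of the daughter cells. Each of the 47 symbols was found in the table. Of them 38 had a mean of at least 10 normalised reads over the 16 libraries and were tested, 17 of the replication and 21 of the mitosis genes. The 9 with too few reads for the test were Cdc6, Gins2 and Uhrf1 among the replication genes and Ccnb1, Aurkb, Plk1, Bub1, Foxm1 and Stmn1 among the mitosis genes.

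The livers came from C57BL/6 mice of 8 to 10 weeks, either wild type or labelled as lacking DRP1 in the liver alone. DRP1, the product of Dnm1l, is a GTPase that divides mitochondria. Mice of each genotype were given a control condition, called control diet here, or Gao-Binge treatment, which ends a period of ethanol feeding with a single high dose. The 4 groups held 4 libraries each: wild type on control diet, wild type on ethanol, and knockout-labelled on each. What drove the deletion, and which exons it removed, is not given in the sources used here. Total Dnm1l reads overlapped between the genotypes, with 581 to 707 in wild type and 539 to 709 in the libraries labelled knockout on control diet, and 697 to 778 and 730 to 949 on ethanol. They cannot check the genotype labels, on which the direction of every genotype comparison rests. Whether each library is a separate mouse is not in the labels, so p-values here reflect only how far these samples vary, which may be technical.

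Hepatocytes of the adult liver rest outside the cycle and can return to it after injury. D cyclins and then E cyclins release E2F transcription factors, which switch on the genes that load the MCM helicase onto DNA, make deoxynucleotides and copy the genome. Genes of mitosis are switched on later, by the MuvB complex together with B-MYB and FOXM1 acting at promoters with a CHR element and an NF-Y box. In resting cells these genes are held silent by the DREAM complex.

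Promoters of members of both lists are printed because the elements differ between the lists. Each sequence runs 5′ to 3′ from 180 bases before to 20 bases after the start in RefSeq on GRCm38.p6, with matches to the motifs searched in capitals. Ccnb2 (chr9:70421535-70421734, minus strand), Cdc20 (chr4:118437324-118437523, minus), Top2a (chr11:99024170-99024369, minus) and Cdk1 (chr10:69352893-69353092, minus) stand for mitosis. Mcm5 (chr8:75109329-75109528, plus) and Mcm6 (chr1:128359686-128359885, minus) stand for the MCM genes, and Tk1 (chr11:117825995-117826194, minus) for replication genes with no match.
Ccnb2: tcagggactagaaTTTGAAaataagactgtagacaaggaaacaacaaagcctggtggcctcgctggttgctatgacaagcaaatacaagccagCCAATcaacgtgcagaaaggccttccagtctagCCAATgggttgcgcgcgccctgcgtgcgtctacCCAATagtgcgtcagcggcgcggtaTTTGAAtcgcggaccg
Cdc20: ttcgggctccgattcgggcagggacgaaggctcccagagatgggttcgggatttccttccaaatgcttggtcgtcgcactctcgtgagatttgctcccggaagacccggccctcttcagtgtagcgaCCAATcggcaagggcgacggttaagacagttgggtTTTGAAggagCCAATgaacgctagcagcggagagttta
Top2a: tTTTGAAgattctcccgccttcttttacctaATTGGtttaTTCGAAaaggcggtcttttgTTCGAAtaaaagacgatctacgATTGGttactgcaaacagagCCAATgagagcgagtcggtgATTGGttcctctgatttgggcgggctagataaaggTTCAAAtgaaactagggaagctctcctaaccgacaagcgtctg
Cdk1: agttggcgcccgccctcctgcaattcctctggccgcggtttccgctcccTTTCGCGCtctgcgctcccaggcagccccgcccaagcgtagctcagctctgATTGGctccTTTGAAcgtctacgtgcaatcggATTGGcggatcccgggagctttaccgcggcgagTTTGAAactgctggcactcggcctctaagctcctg
Mcm5: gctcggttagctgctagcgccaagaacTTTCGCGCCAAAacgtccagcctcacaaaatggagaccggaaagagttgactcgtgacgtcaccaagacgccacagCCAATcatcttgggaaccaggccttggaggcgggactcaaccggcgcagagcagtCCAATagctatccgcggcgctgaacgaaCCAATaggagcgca
Mcm6: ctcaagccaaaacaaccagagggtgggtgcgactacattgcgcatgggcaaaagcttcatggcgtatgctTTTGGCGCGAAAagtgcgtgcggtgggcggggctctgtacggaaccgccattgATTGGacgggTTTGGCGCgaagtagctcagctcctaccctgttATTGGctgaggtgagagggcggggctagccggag
Tk1: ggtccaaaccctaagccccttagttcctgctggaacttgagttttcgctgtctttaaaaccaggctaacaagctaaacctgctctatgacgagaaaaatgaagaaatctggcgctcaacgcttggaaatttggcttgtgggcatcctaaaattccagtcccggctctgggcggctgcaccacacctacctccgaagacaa

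The CHR was searched as TTTGAA or TTCGAA, the NF-Y box as CCAAT, and an E2F site as TTTCCCGC, TTTGGCGC, TTTCGCGC or TTCCCGCC, on both strands, over 250 bases before to 50 after the start. RefSeq had a promoter for 38 of the 47 members and for 27025 genes in all. A CHR stood in 18 of 22 mitosis promoters (81.8%) and 3 of 16 replication promoters (18.8%), against 19.4% of all genes. The NF-Y box was in 20 of 22 mitosis promoters (90.9%), 10 of 16 replication promoters (62.5%) and 37.9% of all. E2F letters were in 8 of 16 replication promoters (50%), in 1 of 22 mitosis promoters, that of Cdk1 (4.5%), and in 3.6% of all. Both a CHR and an NF-Y box were found in 81.8% of mitosis promoters, 18.8% of replication promoters (Mcm2, Mcm7 and Cdc45) and 7.7% of all genes. In the printed windows the Cdc20 CHR begins 18 bases before the start, with NF-Y boxes 53 and 8 bases before it. Mcm5 has overlapping E2F letters beginning 153 and 149 bases before its start. The mitosis promoters without a CHR were those of Birc5, Cenpe, Nusap1 and Ccnb1. Matches to the E2F letters can overlap one another, as in Mcm5 and Mcm6, and a match describes the sequence only.

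**Figure D1:**
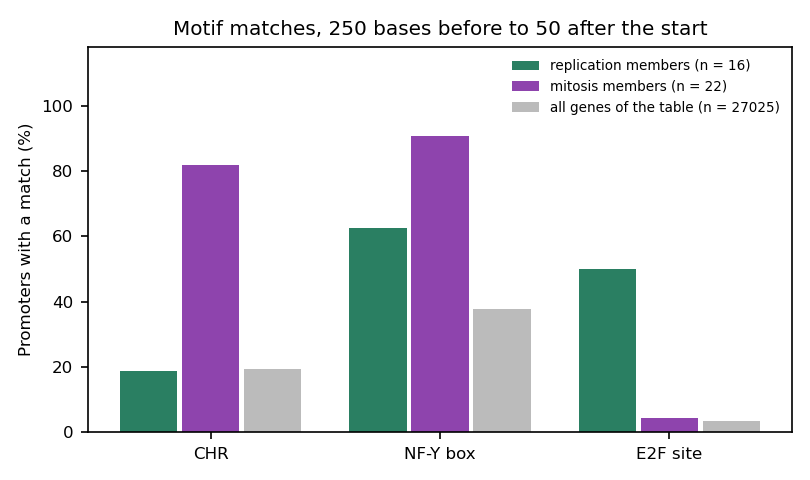
Share of promoters with at least 1 match to each motif, in percent, for replication members (green), mitosis members (purple) and every gene with a RefSeq promoter (grey). The CHR bar is 81.8% for mitosis and 18.8% for replication members, and the E2F bar 4.5% and 50%.

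Each library held 11425136 to 13864862 reads in genes, and few of them came from these members. Only 14 of the 47 had at least 10 reads in every library, and 33 had fewer than 10 in at least 1. Some libraries stood apart. Control library 3 labelled knockout held Saa1, an acute-phase gene, at 38416 normalised reads, where the other control libraries labelled knockout had 1787 to 2667. Ethanol library 1 labelled knockout held the pancreas gene Ctrb1 at 2563, and ethanol library 4 labelled knockout the haemoglobin gene Hba-a1 at 1506. Wild-type ethanol libraries 1 and 2 held Saa1 at 66698 and 49001, and libraries 3 and 4 at 462 and 1104. In the ethanol group labelled knockout library 1 held Saa1 at 19661 and the others at 767 to 2177. Counts with ethanol libraries 1 and 2 alone, or 3 and 4 alone, are given beside the results they touch.

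Per kilobase of exon, replication genes were read more than mitosis genes. Over all 16 libraries the level per kilobase was 148 normalised reads for Ccnd1, 80.4 for Pcna and 63.8 for Rrm2, and 0.895 for Cdc6, the lowest of the replication genes. Among mitosis genes it went from 11.2 for Ccnb2 and 11.03 for Cenpa to 0.794 for Cenpf. In the control-diet group labelled knockout, 18 of the 20 replication genes had their highest group mean. The exceptions were Ccnd1, highest in the ethanol group labelled knockout, and Tk1, highest in wild type on control diet. Of the 27 mitosis genes, 17 were highest by mean in the control-diet group and 10 in the ethanol group labelled knockout, and 23 were lowest in wild type on ethanol.

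**Figure D2:**
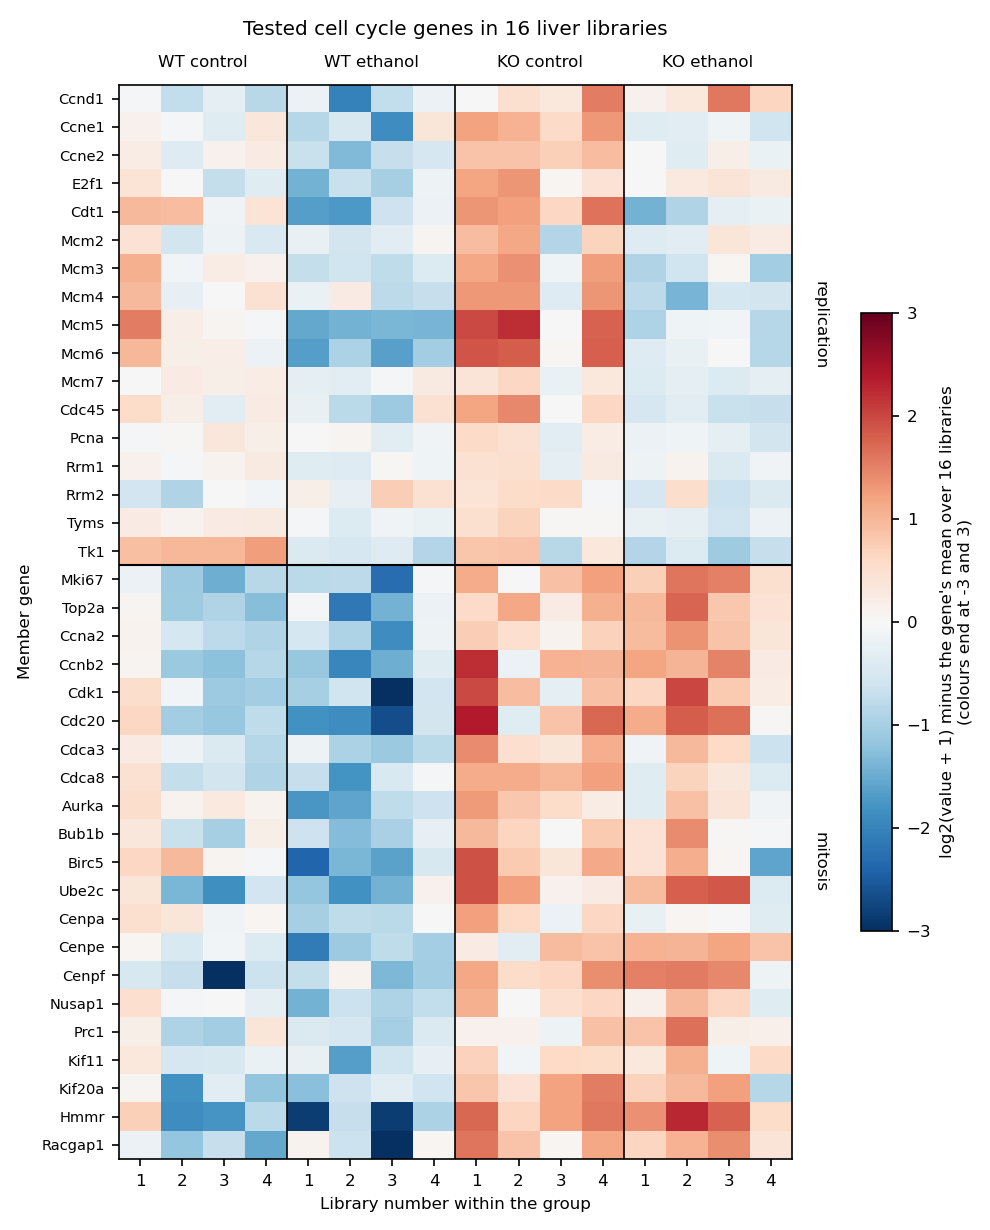
Each row is 1 of the 38 tested members and each column 1 library; colour is log2(value + 1) minus the gene's mean over the 16 libraries. Mitosis rows are mostly red in the columns labelled knockout, except ethanol library 4, where they are mixed, and blue in most wild-type columns. Replication rows are red mainly in control libraries 1, 2 and 4 labelled knockout, and many are red in wild-type control library 1.

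On control diet, mitosis genes were higher in the libraries labelled knockout. Of the 21 tested, limma called 8 higher and 0 lower at an adjusted p under 0.05, where 6.4% of the 13256 genes tested were called higher and 5.24% lower. Without a filter on low values 8 of all 27 were called higher and none lower, against 2.78% and 1.89% of 27288 genes, and all 27 had a positive log2 fold change. Folds were computed after adding 1 to each value, so they are too small for low genes. Of the called members 3 had a mean of at least 10 in the lower group, so most passed the filter through the group where they were high. Over the 21 tested the median log2 fold change was 1.30, against -0.01 over all genes.

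Mki67 (ENSMUSG00000031004, chr7:135689784-135716361), which coats mitotic chromosomes and marks cycling cells, had 23.7, 11.9, 9.07 and 14.5 normalised reads in wild-type control libraries 1 to 4. In the 4 labelled knockout it had 59.1, 26.5, 49.7 and 63.9. The groups did not overlap, a 3.23-fold rise (log2 1.69 ± 0.43 SE, adjusted p = 0.0168 by limma). Top2a (ENSMUSG00000020914, chr11:98992943-99024189), the topoisomerase that untangles sister chromatids, had 25.6, 10.9, 12.5 and 9.34 in wild type and 36.3, 54.9, 28.5 and 51.3 in the libraries labelled knockout. Again no library of one group reached the other, and the rise was 2.92-fold (log2 1.55 ± 0.44 SE, adjusted p = 0.0296 by limma). Ccnb2 (ENSMUSG00000032218, chr9:70407692-70421547), a B cyclin that activates CDK1, had 12.8, 4.97, 4.54 and 6.23 and 59.1, 10.4, 25.8 and 25.2. Library 1 was the highest of each group, and control library 2 labelled knockout lay below wild-type library 1, with a 3.47-fold rise (log2 1.80 ± 0.47 SE, adjusted p = 0.0208 by limma).

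The other 5 calls were Cdca8, Kif20a, Cenpf, Hmmr and Cdca3, while Birc5, Cenpe, Cenpa, Kif11, Nusap1 and Prc1 were not called (log2 0.63, 0.66, 0.37, 0.65, 0.50 and 0.60). Cdca8, which encodes the passenger protein borealin, had 14.8, 5.96, 6.81 and 5.19 in wild type and 23.8, 23.7, 22.1 and 26.1 in the libraries labelled knockout. The latter were close together and all above wild type (log2 1.54 ± 0.39 SE, adjusted p = 0.0175 by limma). Kif20a, a kinesin of the central spindle, had 13.8, 2.98, 10.2 and 5.19 against 23.8, 17.99, 31.3 and 39.6, without overlap (log2 1.81 ± 0.46 SE, adjusted p = 0.0180 by limma). Cenpf, a protein of the kinetochore, had 5.92, 4.97, 0 and 5.19 against 20.7, 13.3, 13.8 and 24.3. Wild-type library 3 held no read of it, and the groups did not overlap (log2 2.21 ± 0.57 SE, adjusted p = 0.0187 by limma). Hmmr, a spindle protein, and Cdca3, an adaptor that helps to trigger entry into mitosis, made up the 8 (log2 2.22 and 1.14, limma adjusted p = 0.0288 and 0.0471). For Hmmr the groups overlapped, with 10.4 in control library 2 labelled knockout and 10.8 in wild-type library 1. Groups did not overlap for 7 of the 21 tested mitosis genes, all higher, against 8.68% of all genes tested higher and 8.72% lower.

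Cdk1, Ccna2 and Cdc20 were not called on this diet. Cdk1 (ENSMUSG00000019942, chr10:69335146-69352938), the kinase that starts mitosis, had 26.6, 16.9, 7.94 and 8.30 in wild type and 74.6, 35.0, 14.7 and 34.2 in the libraries labelled knockout. Library 1 was highest in each group and the groups overlapped (log2 1.30 ± 0.60 SE, adjusted p = 0.183 by limma). Ccna2, a cyclin of S phase and G2, had 17.7, 10.9, 9.07 and 8.30 against 28.0, 23.7, 17.5 and 27.02. Control library 3 labelled knockout fell just below wild-type library 1 (log2 1.04 ± 0.35 SE, adjusted p = 0.0632 by limma). Cdc20 (ENSMUSG00000006398, chr4:118432901-118437352), which activates the complex that ends metaphase, had 17.7, 4.97, 4.54 and 6.23 against 62.2, 8.52, 21.2 and 39.6. The spread within each group was large, and the groups overlapped (log2 1.73 ± 0.59 SE, adjusted p = 0.0674 by limma).

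Of the 17 replication genes tested 1 was called on this diet, Ccne2, a cyclin that opens S phase, which is near the 6.4% of all genes called higher. It had 32.5, 20.9, 30.6 and 33.2 in wild type and 50.8, 51.1, 46.0 and 54.03 in the libraries labelled knockout, which were all higher (log2 0.78 ± 0.21 SE, adjusted p = 0.0254 by limma). The other 16 tested were not called, 15 of them with a positive log2 fold change, and the median of the 17 was 0.65. At an unadjusted p under 0.05 limma had 7 higher and 1 lower, and without a filter Ccne2 was lost. Ccnd1 (ENSMUSG00000070348, chr7:144929931-144939925), the D cyclin that answers growth signals, had 572, 352, 481 and 327 in wild type against 582, 817, 726 and 1715. All 4 libraries labelled knockout were above wild type, with library 4 far above the others (log2 1.06 ± 0.40 SE, adjusted p = 0.101 by limma). Its partner in the next step, Ccne1, had 32.5, 28.8, 22.7 and 37.4 against 69.4, 61.5, 44.2 and 73.8, also without overlap (log2 1.01 ± 0.34 SE, adjusted p = 0.0635 by limma). E2f1, the E2F factor that drives S phase genes, had 50.3, 37.8, 22.7 and 29.1 against 87.0, 95.6, 39.6 and 51.3, with overlap (log2 0.92 ± 0.31 SE, adjusted p = 0.0643 by limma). Tk1, the thymidine salvage kinase, had the only negative log2 fold change, with 185, 198, 199 and 237 in wild type against 176, 181, 55.2 and 123. All libraries labelled knockout were below wild type, library 3 by the most (log2 -0.74 ± 0.28 SE, adjusted p = 0.0960 by limma). Rrm2 and Pcna had log2 0.77 ± 0.26 SE and 0.12 ± 0.17 SE, and both overlapped.

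Control library 3 labelled knockout was the lowest of its group for 15 of the 17 tested replication genes and for 11 of the 21 mitosis genes. Mcm4, a helicase subunit, had 137, 137, 42.4 and 140.5 in the control libraries labelled knockout and 109, 46.7, 54.4 and 75.8 in wild type. Mcm6 (ENSMUSG00000026355, chr1:128331590-128359664), another subunit, had 224, 214, 62.6 and 208 against 120.3, 67.6, 69.2 and 52.9. For both genes the other 3 libraries labelled knockout were above every wild-type library, while library 3 was below all of them for Mcm4 and within their range for Mcm6. Mcm2 and Mcm5 (ENSMUSG00000005410, chr8:75109569-75128439) had library 3 apart in the same way, with 121, 142, 34.1 and 100.9 against 85.8, 42.7, 56.7 and 45.7 for Mcm2 and 95.3, 112, 23.02 and 81.9 against 70.01, 26.8, 24.95 and 22.8 for Mcm5. With all libraries none of the 4 was called (0.65, 0.60, 1.04 and 1.09 on the log2 scale for Mcm2, Mcm4, Mcm5 and Mcm6). Without that library limma called 7 replication genes higher and the median log2 fold change was 0.92. The 7 were Ccne2, E2f1, Mcm2, Mcm3, Mcm4, Mcm5 and Mcm6, among which Mcm6 had log2 1.53 ± 0.27 SE (limma adjusted p = 0.00171). The mitosis count stayed at 8, but the genes were not the same. Racgap1, a regulator of cell cleavage, was called (log2 2.09 ± 0.63 SE, limma adjusted p = 0.0469) and Hmmr was not (limma adjusted p = 0.0516). The part of the high acute-phase genes of that library in its low MCM values was not tested.

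Each of the 9 calls on control diet was lost when some 1 library was left out, with the highest adjusted p over the alternatives between 0.0516 for Mki67 and 0.143 for Cdca3. The mitosis count was 3 without wild-type control library 2 or 3, 2 without library 4 of either control group, 5 without control library 1 labelled knockout and 11 without wild-type control library 1. Wild-type control library 1 was the highest of its group for Ccnb2, Cdc20, Cdca8, Mki67, Mcm5 and Mcm6, and without it 4 replication genes were called. Ccne2 was not called once library 2 of either control group, or library 4 labelled knockout, was left out.

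On ethanol, too, mitosis genes were higher in the libraries labelled knockout. Of the 21 tested, 13 were higher in the libraries labelled knockout and 0 lower, where 6.13% of all genes tested were called higher and 3.75% lower. Without a filter 12 of all 27 were called, against 2.96% of genes, and all 27 had a positive log2 fold change. The median log2 fold change of the tested genes was 1.74, against -0.02 over all genes. Only 3 of the 13 had a wild-type mean of at least 10. That the genotype difference itself changed with ethanol was not shown for any member, as given under the difference of the ethanol effects.

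Cenpe, the kinesin that carries chromosomes to the middle of the spindle, gave the smallest adjusted p. It had 1.23, 3.496, 4.64 and 3.67 normalised reads in wild-type ethanol libraries 1 to 4 and 18.7, 18.4, 20.6 and 16.4 in the 4 labelled knockout. The lowest library labelled knockout held several times the highest wild-type one (4.83-fold, log2 2.27 ± 0.35 SE, adjusted p = 0.000379 by limma). Hmmr had 0, 3.496, 0 and 2.75 against 17.7, 33.7, 23.8 and 9.62. Wild-type libraries 1 and 3 held no read, and the fold of 10.03 depends on the added 1 (log2 3.33 ± 0.62 SE, adjusted p = 0.00209 by limma). Cdc20 had 2.46, 2.33, 0.929 and 7.33 against 25.6, 41.9, 37.2 and 11.5. Library 4 was the highest in wild type and the lowest in the group labelled knockout, and the groups did not overlap (7.37-fold, log2 2.88 ± 0.59 SE, adjusted p = 0.00439 by limma).

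The cyclins and their kinase were called on this diet. Ccna2 (ENSMUSG00000027715, chr3:36564865-36572150) had 11.1, 8.16, 3.72 and 14.7 in wild type and 32.5, 42.9, 30.1 and 21.2 in the libraries labelled knockout. The latter were all higher, 3.34-fold by the fit (log2 1.74 ± 0.35 SE, adjusted p = 0.00366 by limma). Cdk1 had 8.60, 11.7, 0.929 and 11.9 against 28.5, 75.6, 31.7 and 21.2. Wild-type library 3 held a single read, library 2 labelled knockout was far above the rest, and the groups did not overlap (log2 2.27 ± 0.60 SE, adjusted p = 0.0238 by limma). Ccnb2 had 4.91, 2.33, 3.72 and 9.16 against 28.5, 25.5, 35.6 and 14.4, a 4.65-fold difference without overlap (log2 2.22 ± 0.47 SE, adjusted p = 0.00581 by limma).

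Mki67 had 14.7, 15.1, 4.64 and 25.7 in wild type and 44.3, 83.8, 77.6 and 37.5 in the libraries labelled knockout. No values overlapped, and the difference was 4.17-fold (log2 2.06 ± 0.43 SE, adjusted p = 0.00469 by limma). Top2a had 23.3, 4.66, 8.36 and 21.1 against 48.2, 82.8, 42.8 and 32.7, again apart (3.82-fold, log2 1.93 ± 0.44 SE, adjusted p = 0.00853 by limma). Aurka, a kinase of the spindle poles, had 6.14, 6.99, 13.005 and 14.7 against 17.7, 42.9, 30.1 and 21.2. The lowest library labelled knockout, library 1, was above the highest wild-type one (log2 1.37 ± 0.32 SE, adjusted p = 0.00981 by limma). Nusap1 and Prc1, which bundle spindle microtubules, Cenpf, and Ube2c, the ubiquitin-conjugating enzyme of mitotic exit, completed the 13 (log2 1.28, 1.31, 1.85 and 2.12). The groups of Cenpf and Ube2c overlapped. Library 4 labelled knockout had 7.70 and 4.81, below the highest wild-type values of 9.32 and 7.33. The call of Ube2c was lost with the replicate number as a block (limma adjusted p = 0.0509). Groups did not overlap for 14 of the 21, all higher, against 8.36% of all genes tested higher and 7.38% lower.

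Mitosis genes not called on ethanol included Cdca8 and Kif20a, which were called on control diet. Cdca8 had 6.14, 2.33, 7.43 and 10.1 in wild type and 7.87, 17.4, 13.5 and 7.70 in the libraries labelled knockout, with overlap (log2 0.80 ± 0.39 SE, adjusted p = 0.220 by limma). Kif20a had 4.91, 8.16, 10.2 and 8.25 against 21.6, 26.6, 31.7 and 6.74. Library 4 labelled knockout was within the wild-type range (log2 1.20 ± 0.46 SE, adjusted p = 0.114 by limma). With all libraries the kinesin Kif11, the checkpoint kinase Bub1b and Racgap1 were called in no comparison, though their groups did not overlap here (log2 1.14, 1.24 and 1.77). Cenpa, the histone variant of centromeres, and Birc5, which encodes the passenger protein survivin, overlapped (log2 0.51 and 1.46). The test of whether these genes differed between the diets was not past the threshold for any of them.

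Of the replication genes 3 of 17 were called higher on ethanol, all in the control of S phase entry, and none lower, against 6.13% and 3.75% of all genes. Ccnd1 had 523, 143, 354 and 517 in wild type and 643, 737, 1775 and 923 in the libraries labelled knockout. Library 3 labelled knockout held the highest value of the 16 libraries and wild-type library 2 the lowest, and the groups did not overlap (2.74-fold, log2 1.45 ± 0.40 SE, adjusted p = 0.0297 by limma). E2f1 had 13.5, 23.3, 18.6 and 33.9 against 37.4, 46.995, 49.9 and 46.2, without overlap (log2 1.05 ± 0.31 SE, adjusted p = 0.0410 by limma). Ccne2 had 17.2, 10.5, 16.7 and 19.2 against 27.5, 21.5, 31.7 and 24.1, also apart (log2 0.70 ± 0.21 SE, adjusted p = 0.0476 by limma). Ccne1 had 15.97, 20.97, 7.43 and 38.5 against 22.6, 23.5, 26.9 and 19.2, with overlap (log2 0.35 ± 0.34 SE, adjusted p = 0.579 by limma). The median over the 17 was 0.07, with 10 positive and 7 negative, and without a filter 1 of the 20 was called, Ccnd1.

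With all libraries, genes that copy DNA were not called between the genotypes on ethanol. Mcm5 had 7.37, 8.16, 8.36 and 8.25 in wild type and 11.8, 21.5, 22.2 and 12.5 in the libraries labelled knockout. Mcm6 had 18.4, 30.3, 18.6 and 28.4 against 45.2, 51.1, 59.4 and 32.7. For both, every library labelled knockout was above wild type, yet the tests did not pass (log2 0.94 ± 0.43 SE and 0.95 ± 0.36 SE, limma adjusted p = 0.186 and 0.102). Mcm3 and Mcm4 overlapped, with log2 0.00 and -0.45. Mcm2 had 54.1, 43.1, 50.2 and 66.9 against 48.2, 51.1, 82.4 and 75.1 and overlapped (log2 0.24 ± 0.35 SE, adjusted p = 0.737 by limma). Pcna, the sliding clamp of DNA polymerase, had 189, 199, 152 and 176 against 168, 174, 154 and 129, with a log2 fold change of -0.20 ± 0.17 SE. Groups did not overlap for 5 of the 17 replication genes, all higher, against 8.36% of all genes tested higher and 7.38% lower.

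The mitosis calls on ethanol rested on some libraries more than on others. With ethanol libraries 1 and 2 alone 10 mitosis genes were called, and with libraries 3 and 4 alone 1, Cenpe, although the log2 fold changes of the 13 genes were all at or above 0.83 there and in every alternative. The count was 8 without ethanol library 2 labelled knockout and 12 without ethanol libraries 1 and 4 labelled knockout, which held pancreas and blood transcripts. Of the 13 calls, those of Mki67, Top2a, Ccna2, Ccnb2, Cdc20, Aurka, Cenpe and Hmmr were kept without any 1 library. Cdk1 was lost without ethanol library 2 or 3 labelled knockout, Nusap1 without either of these or wild-type ethanol library 1, and Ube2c, Cenpf and Prc1 without any of 6 or more libraries. None of the 3 replication calls remained without ethanol libraries 1 and 4 labelled knockout, nor with either subset alone. Leaving out wild-type ethanol library 2, or ethanol library 3 or 4 labelled knockout, also gave 0. By gene, Ccne2 was lost when any 1 of 13 libraries was left out, E2f1 with any 1 of 8 and Ccnd1 with any 1 of 3. DESeq2 did not call Ccne2, and edgeR did not call E2f1.

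**Figure D3:**
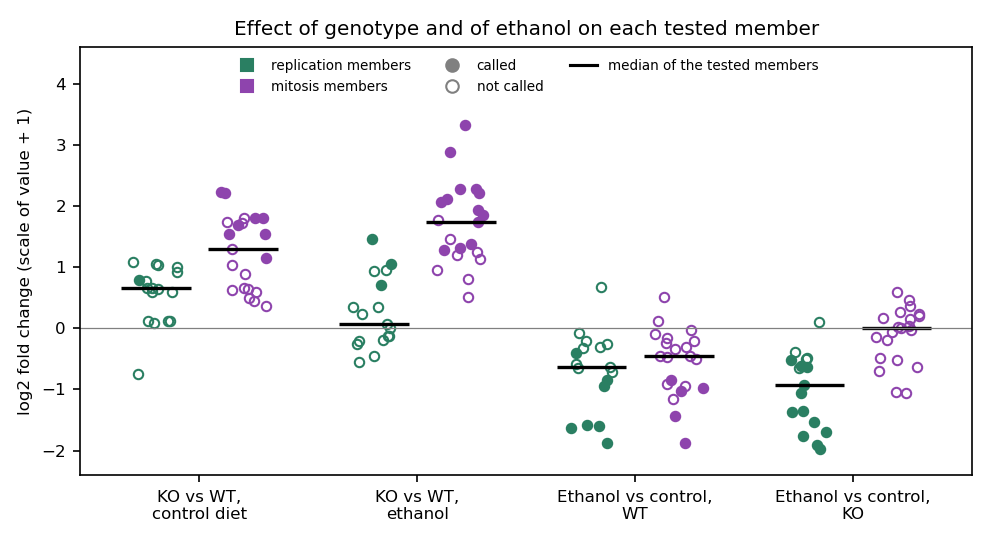
Log2 fold change of each tested member in 4 comparisons; filled points were called by limma, open points were not, and black lines are medians of the tested replication (green) or mitosis (purple) members. Mitosis medians are 1.30 and 1.74 for the genotype, and replication medians -0.64 and -0.93 for ethanol.

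Macrophage markers were also higher in the libraries labelled knockout. Of 16 genes that mark Kupffer cells and macrophages, 9 were higher in the libraries labelled knockout on control diet and 15 on ethanol, and 13 fell with ethanol in wild type, where the shares of all genes were 6.4%, 6.13% and 19%. With ethanol in the libraries labelled knockout 2 of the 16 fell, a share near the 9.01% of all genes. Their summed reads were 3572 to 7984 in wild type on control diet, 1814 to 2220 in wild type on ethanol, 8322 to 12506 in knockout-labelled libraries on control diet and 6929.7 to 8796 on ethanol, and no marker was at 0 throughout a group. Summed reads of 18 lymphocyte markers, of which 3 were high enough to test and 1 was called higher on control diet and 0 on ethanol, were 112 to 141, 50.1 to 71.3, 172 to 490.5 and 108 to 201.1 in the same order, and Ncr1 was at 0 in wild type on ethanol. Hepatocyte markers were lower for 3 of 12 on control diet and 2 of 12 on ethanol, where 5.24% and 3.75% of all genes were lower. The neutrophil sum was 134 or less in every library, and none of the 3 neutrophil markers tested was called. Of 10 stellate cell and fibroblast markers 4 were higher and 1 lower by genotype on ethanol, against 6.13% and 3.75% of all genes. Of 10 endothelial markers 6 rose with ethanol in wild type and 4 in the libraries labelled knockout, against 18.9% and 10.2% of all genes. In bulk tissue fewer cells of a type and less RNA per cell cannot be told apart, and the part of these cells in the mitosis result was not tested.

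Ethanol in wild type was followed by lower replication genes. Of the 17 tested, 7 fell and none rose, in a comparison where 19% of all genes tested fell and 18.9% rose, so a share of 7 in 17 stands beside a large background. Over all 20 without a filter 7 were lower, Uhrf1 in place of Tyms, and none higher, against 8.99% and 8.77% of genes. The median log2 fold change was -0.64, against -0.01 over all genes, and 6 of the 7 had a mean of at least 10 on ethanol.

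Tk1 (ENSMUSG00000025574, chr11:117815526-117826092), the thymidine salvage kinase of S phase, went from 185, 198, 199 and 237 on control diet to 73.7, 69.9, 75.2 and 53.2 on ethanol. All ethanol libraries were far below the control ones, a 2.99-fold fall (log2 -1.58 ± 0.28 SE, adjusted p = 0.000364 by limma). Mcm6 went from 120.3, 67.6, 69.2 and 52.9 to 18.4, 30.3, 18.6 and 28.4, likewise apart (3.08-fold lower, log2 -1.62 ± 0.36 SE, adjusted p = 0.00194 by limma). Mcm5 went from 70.01, 26.8, 24.95 and 22.8 to 7.37, 8.16, 8.36 and 8.25. Control library 1 was high, the ethanol libraries were nearly equal, and the groups did not overlap (3.68-fold lower, log2 -1.88 ± 0.43 SE, adjusted p = 0.00254 by limma). Cdt1, which loads the MCM helicase onto origins, went from 66.1, 64.6, 30.6 and 44.6 to 9.83, 9.32, 21.4 and 29.3. Its highest ethanol value, in library 4, was just below its lowest control value (3.03-fold lower, log2 -1.60 ± 0.37 SE, adjusted p = 0.00308 by limma). Ccne2, Mcm3 and the thymidylate synthase gene Tyms were the other calls (log2 -0.85, -0.95 and -0.41).

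Other replication genes overlapped between the diets in wild type. Mcm2, for which the control values are given above, had 54.1, 43.1, 50.2 and 66.9 on ethanol and was not called (log2 -0.07 ± 0.35 SE, adjusted p = 0.897 by limma). Pcna went from 182, 193, 239 and 215 to 189, 199, 152 and 176 (log2 -0.21 ± 0.17 SE, adjusted p = 0.348 by limma). Its ethanol libraries 1 and 2 lay within the control range. Rrm2, the regulated subunit of ribonucleotide reductase, had 111, 89.5, 164 and 158 on control diet and 188, 141, 279 and 231 on ethanol. It was the only replication gene with a positive log2 fold change in wild type, and the groups overlapped (log2 0.68 ± 0.26 SE, adjusted p = 0.0530 by limma). Ccne1, E2f1 and Ccnd1 were not called, with log2 -0.72, -0.64 and -0.30. Groups did not overlap for 7 of the 17, against 17.4% of all genes tested.

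Of the mitosis genes 5 of 21 fell with ethanol in wild type, a share near the 19% of all genes. Aurka fell 2.71-fold, from 33.5, 24.9, 28.4 and 24.9 to 6.14, 6.99, 13.005 and 14.7, without overlap (log2 -1.44 ± 0.32 SE, adjusted p = 0.00200 by limma). Birc5, Cenpa, Cenpe and Nusap1 were the others (log2 -1.87, -0.85, -1.02 and -0.97). Mki67 and Top2a overlapped, with log2 -0.10 ± 0.43 SE and -0.16 ± 0.44 SE. Over the 21 the median was -0.46, and without a filter 3 of 27 fell.

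In wild type the calls of Ccne2, Cdt1, Mcm5, Mcm6, Tk1, Aurka and Birc5 were kept without any 1 library. Mcm3 needed wild-type control library 1 and wild-type ethanol libraries 1, 2 and 3, Cenpe and Nusap1 needed control libraries 1 and 3 and ethanol library 1, and Cenpa the first and last of these. Tyms was lost without any of 11 libraries or with the replicate block (limma adjusted p = 0.0612). Without wild-type control library 1 or wild-type ethanol library 1 the mitosis count was 2, and without wild-type control library 3 it was 3. With ethanol libraries 3 and 4 alone 3 replication genes and 1 mitosis gene were called.

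In the libraries labelled knockout, ethanol was followed by lower replication genes and by no call among mitosis genes. Of the 17 replication genes tested, 12 fell and none rose, where 9.01% of all genes tested fell and 10.2% rose. Over all 20 without a filter 12 were lower, against 3.43% of genes lower and 4.2% higher, with Uhrf1 in place of Pcna. The median log2 fold change was -0.93, and 11 of the 12 had a mean of at least 10 on ethanol. Of 21 mitosis genes 0 were called in either direction by limma, which had 2 at an unadjusted p under 0.05, edgeR called 1 lower and DESeq2 2, and the median was 0.00 with 11 positive and 10 negative. The lowest of them, Cdca8 and Birc5, had log2 -1.06 ± 0.39 SE and -1.04 ± 0.52 SE (limma adjusted p = 0.0686 and 0.169).

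The helicase with its loader Cdt1 and its activator Cdc45 gave 7 of the 12 falls. Cdt1 went from 85.0, 79.5, 51.6 and 105 on control diet to 11.8, 17.4, 26.9 and 28.9 on ethanol. Even control library 3, the lowest, was above all ethanol libraries (3.75-fold lower, log2 -1.91 ± 0.37 SE, adjusted p = 0.00233 by limma). Mcm6, with the control values given above, had 45.2, 51.1, 59.4 and 32.7 on ethanol, 3.38-fold lower (log2 -1.76 ± 0.36 SE, adjusted p = 0.00287 by limma). Mcm3 went from 106, 123, 42.4 and 113 to 24.6, 30.6, 48.3 and 22.1. Control library 3 was below ethanol library 3, so these groups overlapped (2.90-fold lower, log2 -1.54 ± 0.32 SE, adjusted p = 0.00371 by limma). Mcm4 had 31.5, 20.4, 38.01 and 37.5 on ethanol, below every control library by a fitted 3.25-fold (log2 -1.70 ± 0.37 SE, adjusted p = 0.00440 by limma). Mcm5 had 11.8, 21.5, 22.2 and 12.5, with control library 3 only just above the highest of them (3.94-fold lower, log2 -1.98 ± 0.43 SE, adjusted p = 0.00446 by limma).

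Ccne1 fell 2.60-fold, from the values above to 22.6, 23.5, 26.9 and 19.2, without overlap (log2 -1.38 ± 0.34 SE, adjusted p = 0.00979 by limma). Tk1 went from 176, 181, 55.2 and 123 to 53.1, 74.6, 46.7 and 60.6. Control library 3 was within the ethanol range, and the fall was 2.08-fold (log2 -1.06 ± 0.28 SE, adjusted p = 0.0140 by limma). Pcna went from 283, 260.4, 153 and 222 to 168, 174, 154 and 129, where control library 3 again overlapped (1.44-fold lower, log2 -0.52 ± 0.17 SE, adjusted p = 0.0379 by limma). Ccne2, Mcm7, Cdc45 and Tyms completed the 12 (log2 -0.93, -0.63, -1.35 and -0.62). Ccnd1 was not called, with log2 0.10 ± 0.40 SE, nor were E2f1, Mcm2, Rrm1 and Rrm2 (log2 -0.51, -0.49, -0.38 and -0.64). Rrm2 had 223, 244, 249 and 164 on control diet and 117, 241, 106 and 123 on ethanol, with library 2 far above the other ethanol libraries. Groups did not overlap for 9 of the 17 replication genes, against 11.3% of all genes tested.

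Mki67, Top2a and Cdk1 were not called with ethanol in the libraries labelled knockout. The control and ethanol means there were 49.8 ± 16.6 and 60.8 ± 23.3 for Mki67 (SD, n = 4), 42.8 ± 12.5 and 51.6 ± 21.7 for Top2a, and 39.6 ± 25.1 and 39.2 ± 24.6 for Cdk1. These differences were within the spread, with log2 0.27 ± 0.43 SE, 0.23 ± 0.44 SE and 0.03 ± 0.60 SE. For Mcm6 the same means were 177 ± 76.6 and 47.1 ± 11.2.

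Without control library 3 labelled knockout 14 replication genes fell with ethanol, Mcm2 and Rrm1 being added, and 1 mitosis gene, Cenpa (log2 -0.95 ± 0.24 SE, limma adjusted p = 0.0107). Leaving out control library 1 or 2 labelled knockout ended the calls of Cdc45 and Tk1, that of Pcna was lost without any of 6 libraries, and the other 9 calls were kept without any 1 library. Without ethanol libraries 1 and 4 labelled knockout 3 replication genes were called, and with ethanol libraries 3 and 4 alone 4. Both leave 2 ethanol libraries labelled knockout.

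The response to ethanol was not shown to differ between the genotypes for any of the 38 tested. In the test of the difference itself limma called 0 of them, where 0.143% of genes were called higher and 0.204% lower, and edgeR and DESeq2 called 0 as well. At an unadjusted p under 0.05 limma had 1 replication and 1 mitosis gene, and without a filter it called none of the 47, where 0.0586% of genes were called higher and 0.0989% lower. The largest differences were Cenpe at log2 1.61 ± 0.50 SE and Rrm2 at -1.32 ± 0.37 SE (limma adjusted p = 0.173 and 0.129). Cenpe fell with ethanol in wild type and had a positive log2 fold change in the libraries labelled knockout, while Rrm2 had the opposite signs. The median difference was 0.42 for mitosis and -0.31 for replication genes, with 16 of 21 positive and 14 of 17 negative. The comparisons by genotype and by ethanol share their libraries and are not independent.

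**Figure D4:**
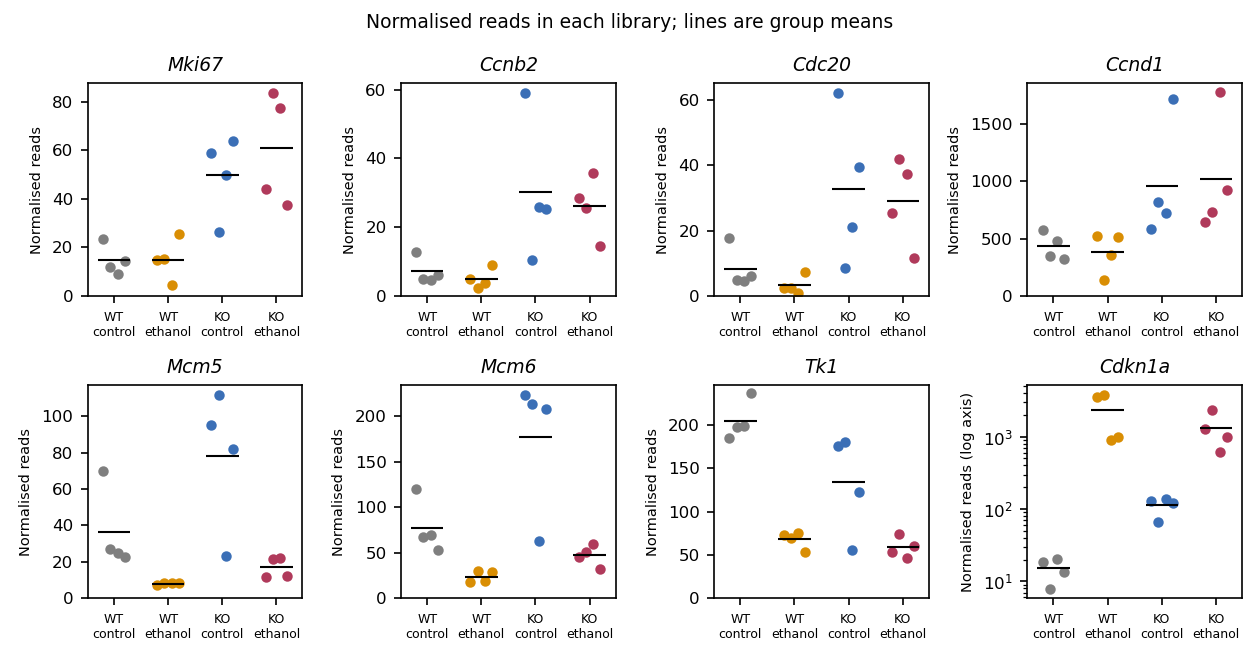
Normalised reads of 8 genes in each library (points) with group means (lines), on linear axes except for Cdkn1a, which has a log axis. Mki67, Ccnb2 and Cdc20 are low in both wild-type groups, Mcm5, Mcm6 and Tk1 are low in both ethanol groups, and control library 3 labelled knockout is low for Mcm5, Mcm6 and Tk1.

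Both lists were set side by side in each library. The mean log2(value + 1) of the 17 replication genes was 6.22 ± 0.22 in wild type on control diet, 5.51 ± 0.21 in wild type on ethanol, 6.78 ± 0.48 in knockout-labelled libraries on control diet and 5.76 ± 0.14 on ethanol (SD, n = 4). For the 21 mitosis genes it was 3.40 ± 0.49, 2.84 ± 0.44, 4.65 ± 0.39 and 4.54 ± 0.55 in the same order. For replication every ethanol library was below every control library, whatever the genotype. On ethanol the lowest mitosis mean in a library labelled knockout, 3.83 in library 4, was above the highest in wild type, 3.43. On control diet the lowest was 4.33 against 4.12.

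Mitosis minus replication, the difference of these means within a library, was -2.82 ± 0.29 in wild type on control diet and -2.68 ± 0.27 on ethanol. In the libraries labelled knockout it was -2.13 ± 0.47 on control diet and -1.22 ± 0.50 on ethanol (SD, n = 4). The 4 ethanol libraries labelled knockout had -1.13, -0.67, -1.20 and -1.88, each above all 8 wild-type libraries, which lay between -3.09 and -2.39. Control libraries labelled knockout had -1.91, -2.79, -1.73 and -2.08, and library 2 lay among the wild-type values. With every member in place of the tested ones the group means were -2.59, -2.38, -1.96 and -1.004. Since the members were chosen with results of these data known, no p is given for these scores.

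**Figure D5:**
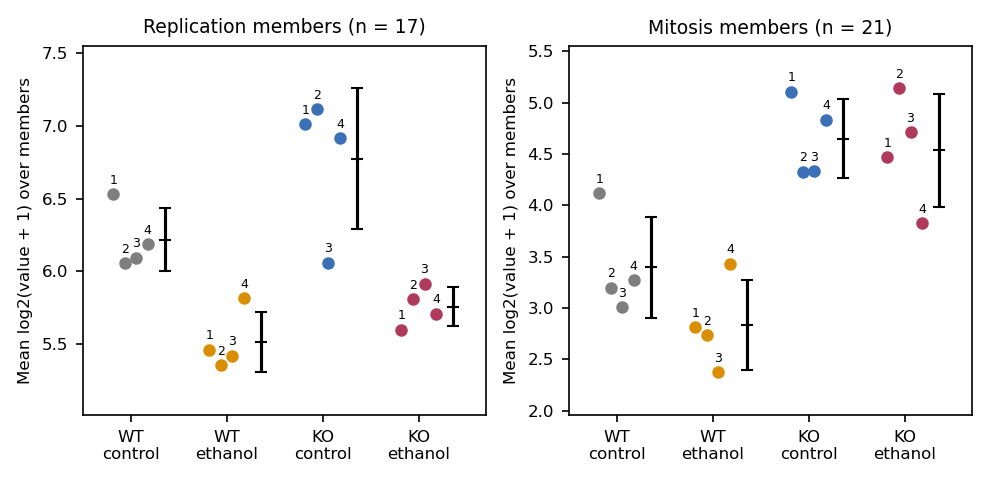
Mean log2(value + 1) over the tested replication members (left) and mitosis members (right) in each library, numbered by library, with the group mean ± SD (bars). The axes do not start at 0. Replication values are lower in all 8 ethanol libraries, and mitosis values are higher in all 8 libraries labelled knockout than in wild type on the same diet.

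The members with too few reads for the test were near the counting limit. Ccnb1, the main mitotic B cyclin, had 3.94, 0.994, 0 and 0 in wild type on control diet and 0, 0, 0 and 1.83 on ethanol. In the libraries labelled knockout it had 7.25, 3.79, 1.84 and 7.20 and 7.87, 21.5, 10.3 and 6.74. It had no read in 5 of the 8 wild-type libraries, and without a filter it was called higher on ethanol (limma adjusted p = 0.00143). Foxm1, the transcription factor of the mitosis genes, had 8.87, 0.994, 2.27 and 2.08 and 1.23, 0, 2.79 and 4.58 in wild type. In the libraries labelled knockout it had 16.6, 9.47, 11.05 and 16.2 and 8.85, 15.3, 12.7 and 3.85, and without a filter neither genotype comparison was called (limma adjusted p = 0.0583 on control diet and 0.0532 on ethanol). The kinase gene Aurkb was called on control diet in that fit (limma adjusted p = 0.0277).

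Plk1 and Bub1, kinases of mitosis, and Stmn1, which destabilises microtubules, were not called in that fit in any comparison. Their group means were between 0.458 for Bub1 in wild type on ethanol and 11.1 for Plk1 in the control libraries labelled knockout. Uhrf1, which maintains DNA methylation behind the fork, fell with ethanol in both genotypes (limma adjusted p = 0.0238 in wild type and 0.0460 in the libraries labelled knockout). Cdc6 and Gins2, which load and activate the helicase, were not called. Cdc6 had 14.5, 25.6, 0.921 and 6.30 in the control libraries labelled knockout and at most 4.93 in every other group, with library 3 low again.

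Other genes of the same pathways were counted on lists that share no gene with the members. Of 37 tested replication genes outside the members, 23 fell and 2 rose with ethanol in wild type, and 18 fell and none rose in the libraries labelled knockout. Of all genes tested 19% fell and 18.9% rose in wild type, and 9.01% fell and 10.2% rose in the libraries labelled knockout. The rises were Chaf1b and Orc2. Rpa2, of the single-strand binding protein, fell 2.13-fold in wild type and 2.38-fold in the libraries labelled knockout. By genotype 1 of 37 was called on each diet, Mcm10 lower on control diet and Chaf1b lower on ethanol. The shares of all genes called lower were 5.24% and 3.75%, and neither count was above its share. Of 41 other mitosis genes 19 were tested, and 4 were higher in the libraries labelled knockout on each diet, against 6.4% of all genes on control diet and 6.13% on ethanol. On each diet 2 of these calls had a mean of at least 10 in the lower group. Without a filter 8 and 9 of the 41 were called higher, against 2.78% and 2.96% of genes. The median log2 fold change of the 19 was 0.53 on control diet and 0.62 on ethanol, with 2 and 4 of them negative. Tpx2, a spindle assembly factor, was 4.31-fold and 4.26-fold higher, and Ckap2, a spindle protein, 4.01-fold and 5.93-fold. With ethanol 4 of the 19 fell in wild type, near the 19% of all genes, and 3 fell and 1 rose in the libraries labelled knockout.

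Among brakes of the cycle the largest rise was that of Cdkn1a. Cdkn1a, which encodes the CDK inhibitor p21, had 18.7, 7.95, 20.4 and 13.5 in wild type on control diet and 3567, 3769, 895 and 999 on ethanol. The control libraries labelled knockout had 128, 65.3, 138 and 119.8 and the ethanol ones 1269, 2345, 605 and 975. No control-diet values overlapped between the genotypes, with a 7.16-fold rise (log2 2.84 ± 0.48 SE, adjusted p = 0.00100 by limma), and the ethanol values overlapped. The rise with ethanol was 122-fold in wild type and 10.5-fold in the libraries labelled knockout, and the difference of these effects was called (log2 -3.53 ± 0.68 SE, limma adjusted p = 0.0356). With the replicate block (limma adjusted p = 0.0561) or edgeR (adjusted p = 0.0546) the difference was not called, nor without wild-type control library 1, 2 or 4, wild-type ethanol library 1 or 2, or control library 1, 3 or 4 or ethanol library 1, 3 or 4 labelled knockout.

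Of the 15 brakes tested, 5 rose and 1 fell with ethanol in wild type, and 3 rose and 1 fell in the libraries labelled knockout. The shares over all genes were 18.9% and 19% in wild type and 10.2% and 9.01% in the libraries labelled knockout. Gadd45b, a stress-induced growth arrest gene, rose 15.4-fold in wild type, and Btg2, an antiproliferative gene, 10.6-fold in wild type and 4.61-fold in the libraries labelled knockout. Among drivers of G1, Myc had 19.7, 52.7, 40.8 and 22.8 in wild type and 193, 108, 205 and 139 in the libraries labelled knockout on control diet, a 4.84-fold rise (log2 2.27 ± 0.36 SE, adjusted p = 0.000598 by limma). On ethanol Myc was 309 ± 171 and 286 ± 38.6 (SD, n = 4) and not called between the genotypes (log2 0.07 ± 0.36 SE, adjusted p = 0.940 by limma). Cdk2, the partner of E and A cyclins, fell 3.02-fold with ethanol in wild type and 1.98-fold in the libraries labelled knockout. Ccnd2 was not called in any comparison, nor was E2f8, a repressor of the E2F family, while E2f7 was below the filter. Chek2 and Atm, checkpoint kinases, fell 3.75-fold and 2.66-fold with ethanol in wild type, where 8 of 15 checkpoint and repair genes fell and 2 rose, beside the same 19% and 18.9% of all genes. In the E2F and DREAM list 13 genes were tested, and by genotype on ethanol limma called 3 up and 1 down. The shares over all genes were 6.13% and 3.75%, and the median log2 fold change of the 13 was 0.09. Only 2 of these calls had a mean of at least 10 in the lower group. E2f2 and the B-MYB relative Mybl1 were 3.24-fold and 2.93-fold above wild type on that diet.

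Reads of some members can belong to a neighbour, since the strand setting of the count is not given in the sources used here. Exons of Ccnd1, Ccne2, Ccna2, Kif20a, Prc1 and Ube2c overlap those of LTO1, Ints8, Exosc9, Cdc23, Rccd1 and Tnnc2 on the opposite strand. Pcna and Tyms have pseudogene copies in the table, Pcna-ps2 with at most 18.9 and Tyms-ps with at most 6.81 normalised reads in a library.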

How the data were processed

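RNA of mouse liver was sequenced in 16 libraries, 4 in each of 4 groups. The deposited signal values are gene counts that the authors divided by a size factor per library, as read from the values themselves. HISAT2 (version 2.1.0.13), HTSeq and edgeR, with the genome build GRCm38, are named per the submitters' processing notes, which give no role or strand setting. The size factors could be recovered, and 100% of values came out as whole reads within 0.01, so depth is known.

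Values were analysed as log2(value + 1) with limma 3.58.1 in R 4.3.3, with trend, over the 13256 of 27288 genes with a mean of at least 10. The model had 4 group means and 5 contrasts, with Benjamini-Hochberg adjustment over all genes and a call at an adjusted p under 0.05. The script was tested on simulated data. Alternatives were edgeR 4.0.16 and DESeq2 1.42.0 on the recovered reads, other added constants and filters, TMM factors, no trend, only the groups compared, a replicate block, and subsets of libraries. The members, lists and tests were chosen with earlier results of these data known.

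Genes given in full were, for each comparison, the 5 called members with the smallest adjusted p, a set of core genes (Mki67, Top2a, Ccna2, Cdk1, Ccnb1, Ccnd1, Ccne1, Mcm2, Mcm5, Mcm6, Pcna, Rrm2, Foxm1 and E2f1), and up to 3 called genes of each other list with Cdkn1a, Ccnd2, E2f7, E2f8 and Myc. Replicate numbers come from the labels. Deviations of same-numbered libraries were correlated over 0.1 in every pair only for the genotypes on ethanol (r of 0.115, 0.246, 0.219 and 0.102), which is a hint from the data and not the design. Differently numbered pairs within libraries 1 and 2 or within 3 and 4 correlated as much (r of 0.0975 to 0.199), and pairs across these subsets gave -0.25 to -0.0762. Libraries of a group differed by more than counting noise, so none was taken for a library deposited again; this does not show that they are separate mice. Gene coordinates are those of GENCODE on GRCm38, and 27233 of 27288 identifiers matched a symbol. The result for 1 gene is not reported here.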

Additional observations from a re-analysis of the deposited data

Results flagged for a closer look

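Groups of 4 libraries were examined for each gene and for the list scores, 172 combinations in all. In 10 of them, all of genes, 1 library had a gap to its nearest neighbour that exceeded the 95% critical value of Dixon's test, and chance gives about 1 in 20. Control library 3 labelled knockout was low for Mcm4 (42.4 normalised reads) and Mcm6 (62.6), with the other libraries of its group at 137 or more. Wild-type control library 1 was high for Mcm5 (70.01), Cdc20 (17.7) and Cdca8 (14.8). Cenpf had 0 reads in wild-type control library 3 and 7.70 in ethanol library 4 labelled knockout, where the other libraries of that group had at least 25.3. Rrm2 was high in ethanol library 2 labelled knockout (241), Tyms was low in wild-type control library 2 (86.5), and Prc1 was low in wild-type ethanol library 3 (4.64). The difference between the genotypes in the change of Cdkn1a with ethanol was called, with a log2 value of -3.53 (adjusted p = 0.0356 by limma). It was not called with the replicate block (adjusted p = 0.0561 by limma), with edgeR (0.0546) or without any 1 of 11 libraries, and in each genotype all 4 ethanol libraries were above the control libraries.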

How the results depend on the processing

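No called value changed sign under the alternatives run, and 162 values not called under either setting did. Over all genes the main counts were 1544 for the genotype on control diet, 1310 on ethanol, 5032 for ethanol in wild type, 2543 in the libraries labelled knockout and 46 for the difference. On the recovered reads edgeR called 1525, 1281, 5013 and 2679 genes in the first 4. The difference gave 16 without trend, 24 with the replicate block, 30 with edgeR and 265 with DESeq2. Without ethanol libraries 1 and 4 labelled knockout the genotype on ethanol gave 496, ethanol in the libraries labelled knockout 1003 and the difference 0. With ethanol libraries 3 and 4 only, the counts were 434, 3164, 1370 and 0 from the genotype on ethanol onward, and with libraries 1 and 2 only the difference gave 264.

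Replication genes higher by genotype on control diet were 2 with 4 added or with the replicate block, 0 without a filter or with a mean of at least 50, 3 with only the groups compared or edgeR, and 5 with DESeq2. On ethanol they were 1 without a filter or at a mean of 50, and 0 in each subset of ethanol libraries. With a mean of at least 50 no mitosis gene was called by genotype (0 on each diet), since hardly any is tested, and 4 and 7 replication genes and 1 mitosis gene in wild type fell with ethanol. Mitosis genes higher on ethanol were 8 with only the groups compared and 1 with ethanol libraries 3 and 4. Those lower with ethanol in wild type were 3 without a filter or with DESeq2, and 1 with libraries 3 and 4. In the libraries labelled knockout they were 1 with 4 added, only the groups compared or edgeR, and 2 with DESeq2. Replication genes lower with ethanol were 3 in wild type and 4 in the libraries labelled knockout with ethanol libraries 3 and 4, and 3 in the latter without libraries 1 and 4. With every member, mitosis minus replication was -2.38 in wild type on ethanol. The cause was not tested.

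Leaving out 1 library gave 922 to 1691, 848 to 1685, 4251 to 5289, 1745 to 2947 and 8 to 215 over all genes. For replication and mitosis genes it gave 0 to 7 and 2 to 11 by genotype on control diet, 0 to 3 and 8 to 16 on ethanol, 5 to 8 and 2 to 5 for ethanol in wild type, and 9 to 14 and 0 to 1 in the libraries labelled knockout. Of 49 calls, 24 held without any 1 library and 6 under every alternative: Cenpe by genotype on ethanol, Mcm5, Mcm6, Tk1 and Aurka for ethanol in wild type, and Cdt1 in the libraries labelled knockout. The replicate block added Ccne1 by genotype on control diet (adjusted p = 0.0496 by limma) and took Tyms (0.0612), Ube2c (0.0509), Pola1 (0.0719), Prim2 (0.0607), Dut (0.0589), Blm (0.0594), Trp53bp1 (0.0601) and the difference for Cdkn1a (0.0561). It changed no other call of a member and took no other call of the other lists. New calls in the other lists were looked for only in Cdkn1a, Ccnd2, E2f8 and Myc. Few reads limit the mitosis genes most: 33 of the 47 members had under 10 reads in some library.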
